A study of Mus musculus with 8 samples.

Results

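Loops, TADs and CTCF sites were examined at 10 mouse genes of bone morphogenetic protein (BMP) signaling, out of 21631 protein-coding genes on chromosomes 1 to 19 and X. They are the ligand genes Bmp2, Bmp4, Bmp5, Bmp6 and Bmp7, the type I receptor genes Bmpr1a, Bmpr1b and Acvr1, and the antagonist genes Nog and Grem1. The genes were chosen by name, as members of this pathway. A loop was assigned to a gene when an anchor overlapped its body widened by 5 kb on either side, a TAD when it touched this interval, and a CTCF peak when it lay in it. Hi-C, which counts ligated pairs of DNA fragments that are close in the nucleus, was performed on cells of 1 ES cell line, v6.5, grown feeder-free with 24 ng/ml LIF (wild type, 2000000 cells per replicate) and on epithelium and fiber cells microdissected from the lenses of CD-1 mice at postnatal day 0.5 (30 lenses per replicate), 2 replicates of each. CTCF ChIP-seq was performed on epithelium and on fiber cells from 200 CD-1 lenses of the same age, with 1 sample of each by the labels and none of ES cells. The methods of the study describe biological replicates of the ChIP-seq, and whether the peak lists pool them is not known. No group carried a mutation or a treatment, and each lens sample pools many animals. The lists hold no expression values, so that the identity of the cells could not be checked against marker genes.

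BMPs are secreted ligands of the TGF-beta superfamily. A ligand dimer brings together type I receptors (Bmpr1a, Bmpr1b and Acvr1) and type II receptors, the type I receptor then phosphorylates Smad1, Smad5 and Smad9, and these enter the nucleus with Smad4. Noggin (Nog) and gremlin (Grem1) bind ligands outside the cell and keep them from their receptors. In the eye, Bmp4 and Bmp7 are needed for formation of the lens, Bmpr1a and Acvr1 act in the lens placode, and BMP signals take part in fiber cell differentiation. A chromatin loop brings together distant DNA segments, called anchors, which are often bound by the architectural protein CTCF, and a TAD is a domain whose DNA contacts itself more than its surroundings.

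Both replicates of each cell type had been merged before loops and TADs were called, so each cell type is represented by 1 list, no replicate error exists, and no difference between cell types was tested. ES cells had 8459 listed loops, epithelium 8005 and fiber cells 7682, with anchors of 5, 10 or 25 kb, and the lens lists held 16433 (epithelium) and 23868 (fiber cells) CTCF peaks. Anchors of 5 kb made up 39.6% of the loops in ES cells, 18.3% in epithelium and 16.0% in fiber cells. Read depth is not part of the lists. For a loop, the enrichment given here is the observed count of contacts divided by the count expected from a donut-shaped neighborhood around it. Its exact 95% Poisson interval covers the counting error of the observed contacts only, takes the expected count as fixed, and stands in for no replicate. Absence of a loop or peak means that none was listed. Coordinates are of mm10, counted from 1.

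The promoters of 2 ligand genes, Bmp4 and Bmp6, lay under a loop anchor in both lens lists and in no anchor of the ES cell list. That of Bmp5 lay just outside the anchor assigned to it. These 3 windows are shown, from RefSeq (GRCm38.p6), because they are promoter DNA that loops of the ligand genes reach or border. Bmp2, Bmp7 and Nog had no entry among the windows, although anchors also covered the bodies of Bmp2 in epithelium and of Nog in all 3 lists. Each runs 5′ to 3′ on the strand of the gene, from 250 bases before its start to 50 after, with CpG dinucleotides, the sites of DNA methylation, in capitals. Their positions are chr14:46390620-46390919 on the minus strand (Bmp4), chr13:38345466-38345765 on the plus strand (Bmp6) and chr9:75775115-75775414 on the plus strand (Bmp5).
Bmp4: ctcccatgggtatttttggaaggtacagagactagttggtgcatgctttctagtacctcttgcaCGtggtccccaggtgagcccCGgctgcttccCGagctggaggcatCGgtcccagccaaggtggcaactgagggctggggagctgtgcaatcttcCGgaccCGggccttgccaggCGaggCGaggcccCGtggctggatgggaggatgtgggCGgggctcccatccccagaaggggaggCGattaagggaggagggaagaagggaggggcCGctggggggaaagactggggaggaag
Bmp6: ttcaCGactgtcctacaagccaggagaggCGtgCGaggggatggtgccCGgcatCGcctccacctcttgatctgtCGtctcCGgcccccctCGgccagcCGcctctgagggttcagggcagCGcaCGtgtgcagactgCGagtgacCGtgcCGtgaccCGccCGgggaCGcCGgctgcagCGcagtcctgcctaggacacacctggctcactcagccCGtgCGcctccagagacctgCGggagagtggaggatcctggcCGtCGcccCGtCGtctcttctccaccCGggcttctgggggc
Bmp5: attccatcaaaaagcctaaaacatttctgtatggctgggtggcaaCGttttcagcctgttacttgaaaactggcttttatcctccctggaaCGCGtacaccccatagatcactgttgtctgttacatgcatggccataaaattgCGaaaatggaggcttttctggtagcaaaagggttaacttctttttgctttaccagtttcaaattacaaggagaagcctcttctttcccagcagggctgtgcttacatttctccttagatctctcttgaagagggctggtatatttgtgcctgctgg
The window of Bmp6 held 27 CpG and was 69.3% G or C, and that of Bmp4 held 12 CpG at 64.0%. The window of Bmp5 held 4 CpG at 43.3%. Over all windows the medians were 7 CpG and 52.7%. Windows under a loop anchor made up 12.1% of 32619 in ES cells, 13.9% in epithelium and 13.1% in fiber cells, and 4.07% were under an anchor in both lens lists and not in ES cells. The windows of the other members with an entry (Bmpr1a, Bmpr1b, Acvr1 and Grem1) were under no anchor in any list. No member window held a CTCF peak (1.31% of all windows did in epithelium and 4.46% in fiber cells).

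Across the 10 genes, loops were found at 6 in ES cells, 8 in epithelium and 7 in fiber cells, where all protein-coding genes gave 37.3%, 36.2% and 34.5%. Bmp2, Bmpr1a, Bmpr1b, Acvr1 and Nog had a loop in all 3 lists (21.3% of all genes did), Bmp4 and Bmp6 had loops in both lens lists and none in ES cells (6.73%), and Bmp5 had 1 in ES cells and epithelium. Bmp7 and Grem1 had none in any list (47.9%). Under a stricter limit, with all false discovery rates below 0.01, Bmp2 had no loop in ES cells, and Bmp6 and Bmpr1a had none in epithelium. The shares of all genes under this limit were not computed. Gene length differed as well, and its part in these counts was not tested: the median body was 82.3 kb in the 10 genes and 17.3 kb in all genes, and among the 4941 genes with a body over 50 kb the shares with a loop were 59.8%, 64.7% and 63.3%. Of the 6 members over 50 kb, loops were found at 4, 5 and 4. The 4 shorter members, Bmp2, Bmp4, Nog and Grem1, had loops at 2 in ES cells and at 3 in each lens cell type, beside 30.6%, 27.8% and 26.0% of the 16690 genes up to 50 kb.

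**Figure D1:**
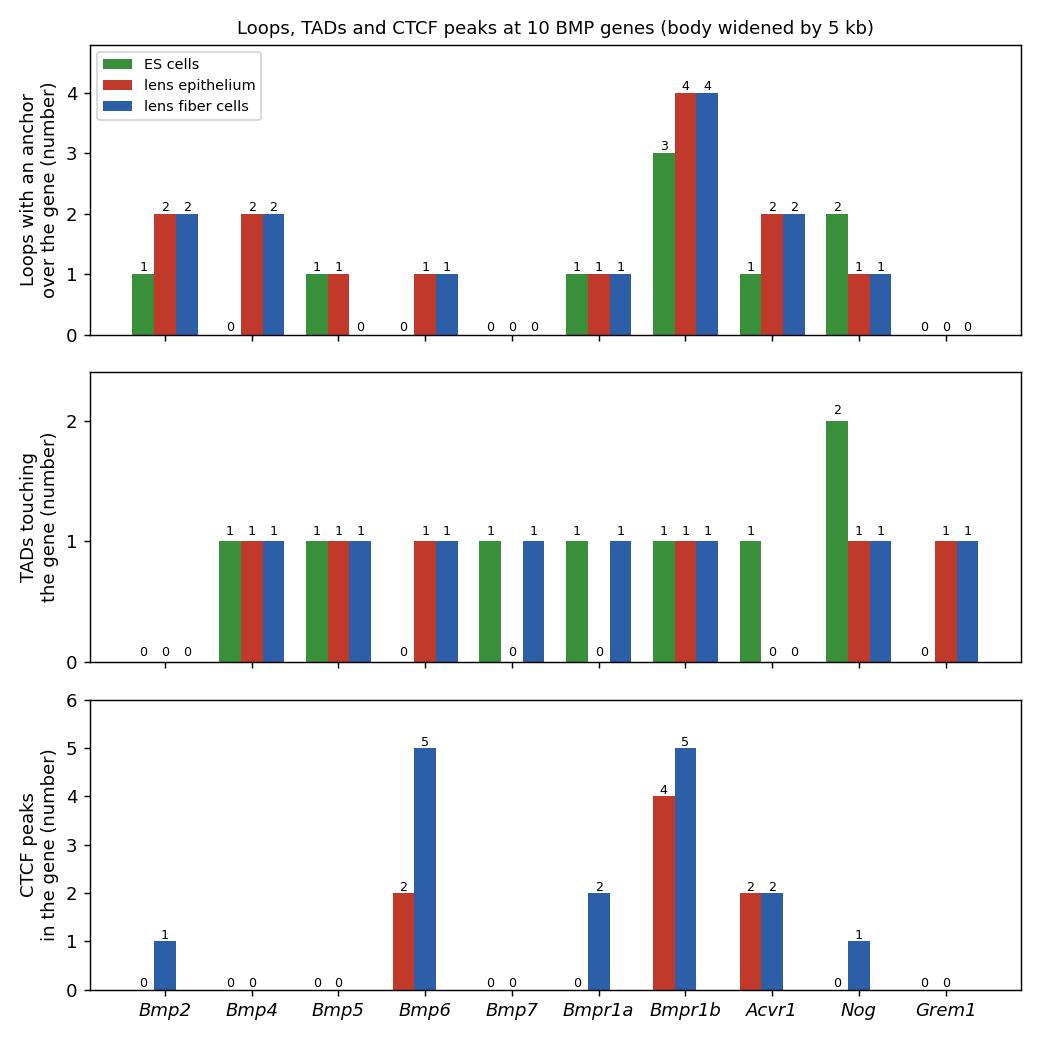
Number of loops with an anchor over each gene (top), of TADs touching it (middle) and of CTCF peaks in it (bottom), with the body widened by 5 kb, in ES cells (green), epithelium (red) and fiber cells (blue), 1 merged list each and no CTCF list for ES cells. Bmpr1b had the most loops, 3, 4 and 4, while Bmp7 and Grem1 had none.

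**Figure D2:**
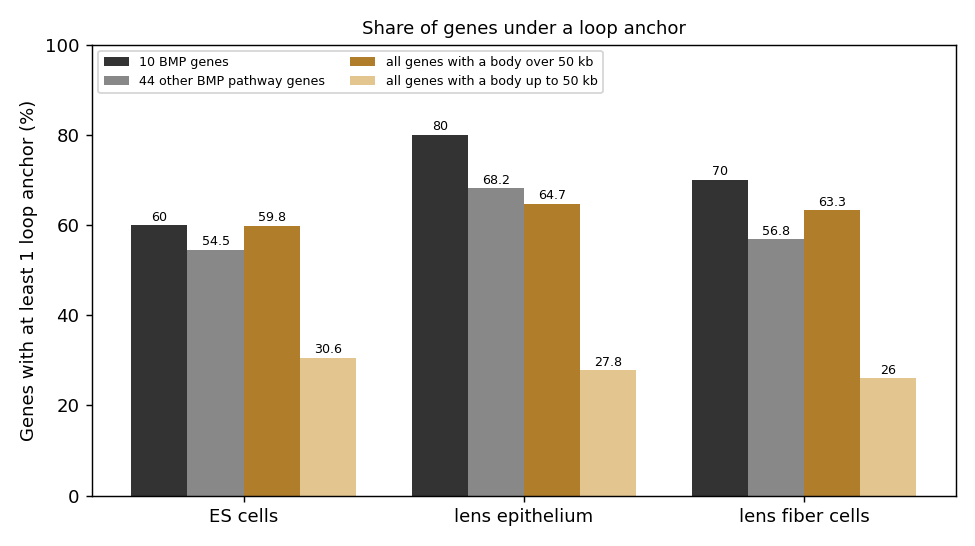
Percent of genes with at least 1 loop anchor over the widened body, for the 10 BMP genes, 44 other genes of the pathway, and all protein-coding genes with a body over 50 kb or up to 50 kb. In ES cells 6 of the 10 BMP genes had an anchor, 4 of the 6 over 50 kb and 2 of the 4 up to 50 kb. All genes of these lengths gave 59.8% and 30.6%.

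There were 9 loops at these genes in ES cells, 14 in epithelium and 13 in fiber cells. Their median size, measured between anchor midpoints, was 250, 395 and 390 kb, beside 220, 250 and 270 kb for all loops of the same list. The largest in each list spanned 475 kb in ES cells and 2550 kb in both lens cell types, and no loop exceeded 3 Mb. Median enrichment was 3.40, 2.77 and 3.16, beside 3.04, 3.03 and 2.82 for all loops, each taken over all anchor widths. The mix of widths differed: anchors of 25 kb made up 22.2%, 64.3% and 38.5% of these loops. Among all loops they made up 24.4%, 41.6% and 42.9%. Ratios are comparable only at equal width, so no difference between these medians is read here. A counterpart was a loop of another list with each anchor midpoint at most 10 kb away. By this measure 10 of the 14 loops in epithelium had a counterpart in fiber cells (71.4%, and 55.5% of all loops), while 5 had one in ES cells (35.7%, and 37.9%). Of the 9 ES cell loops, 6 had a counterpart in epithelium (35.9% of all loops) and 6 in fiber cells (34.6%). Loops without any counterpart numbered 2 in ES cells, 3 in epithelium and 2 in fiber cells (22.2%, 21.4% and 15.4%). Among all loops the shares without one were 57.0%, 35.8% and 34.4%. With midpoints allowed up to 25 kb apart, all 14 loops of epithelium and all 13 of fiber cells had a counterpart. In ES cells 7 of 9 did. The lens loops without a counterpart thus rested on the limit of 10 kb, and the shares of all loops at 25 kb were not computed. No loop joined a pair of these genes, or any of them to another gene of the BMP pathway.

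**Figure D3:**
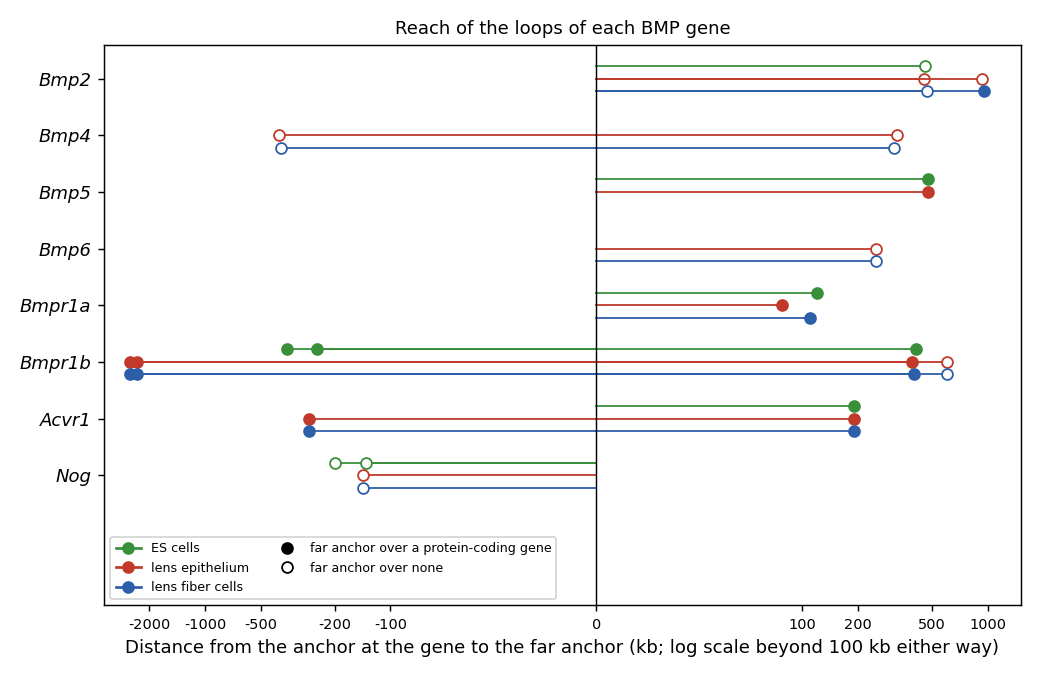
Distance in kb from the anchor at each gene to the far anchor of each loop, toward lower coordinates (left) or higher coordinates (right), on a scale that is logarithmic beyond 100 kb; filled points are far anchors over a protein-coding gene. Loops of Bmp2, Bmp5, Bmp6 and Bmpr1a all ran to the right and those of Nog all to the left, and the loops of 2325 and 2550 kb at Bmpr1b appeared in both lens lists only.

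Among the ligands, Bmp4 had 4 loops in the lens lists and none in ES cells. This gene (7.14 kb at chr14:46383525-46390669) encodes a ligand that acts in lens induction. In epithelium a loop of 400 kb toward lower coordinates held 146 contacts against 57.5 expected (2.54, 2.14 to 2.99), and a loop of 325 kb toward higher coordinates held 113 against 53.5 (2.11, 1.74 to 2.54). In fiber cells the corresponding loops of 390 and 310 kb held 51 contacts against 16.8 (3.03, 2.25 to 3.98) and 40 against 10.8 (3.71, 2.65 to 5.05). Each lens loop thus had its counterpart in the other lens list, with anchors of 25 kb in epithelium and 10 kb in fiber cells. Between them the loops covered both flanks of Bmp4. The promoter window shown above lay under the anchor of both loops in epithelium and of the loop of 310 kb in fiber cells. The nearest ES cell anchor was 329 kb from the gene. It belonged to a loop of 730 kb that enclosed Bmp4 (19 contacts, 5.64, 3.40 to 8.81), which had counterparts of 720 kb in epithelium (34 contacts, 3.99, 2.76 to 5.58) and fiber cells (42 contacts, 3.50, 2.52 to 4.72). The enclosing loop was therefore listed in all 3 cell types, and the far anchors of the lens loops of Bmp4 lay at or beside its ends. Neither far anchor reached a protein-coding gene. The nearest to the lower one was Ddhd1, a phospholipase gene, 317 kb away in epithelium and 332 kb in fiber cells, and the nearest to the higher one was Cdkn3, a phosphatase gene of the cell cycle, at 35.5 and 50.5 kb. All 4 lens loops lay within a TAD that held Bmp4 in each of the 3 lists, of 840 kb in ES cells and 830 kb in both lens cell types, so that the domain was listed also where the loops at the gene were not. No CTCF peak lay in the gene. The lower far anchor held a peak of the fiber list alone (chr14:45993721-45993958, 5.38-fold over background) and the higher one a peak of the epithelium list alone (chr14:46703230-46703458, 4.14-fold). When only anchors of 5 or 10 kb were counted, the 2 loops of epithelium dropped out and those of fiber cells remained.

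Bmp6, a ligand known also for its part in iron balance, showed the other lens-only pattern. The gene (155 kb at chr13:38345716-38500314) had a loop of 250 kb with identical anchors of 25 kb in epithelium and fiber cells. The loop held 112 contacts against 53.9 expected in epithelium (2.08, 1.71 to 2.50) and 148 against 69.6 in fiber cells (2.12, 1.80 to 2.50). The enrichments in both lens lists were thus nearly equal. The near anchor covered the first 4285 bases of the gene with its promoter, and the far one ended 2.7 kb from Bloc1s5, a gene of lysosome-related organelles. Both anchors lay in a TAD of 595 kb that was identical in the lens lists, and no TAD was listed there in ES cells, whose nearest anchor was 126 kb away. The loop did not pass stricter definitions in every list: its largest false discovery rate in epithelium was 0.012, above the limit of 0.01 used as an alternative, its anchors were wider than 10 kb, and the anchor midpoint lay outside the widened body.

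Bmp6 had 2 CTCF peaks in epithelium and 5 in fiber cells, the most of any ligand gene here. Peaks at 23.1 and 92.5 kb into the body in epithelium (5.85-fold and 7.12-fold) overlapped fiber peaks of 6.32-fold and 5.48-fold. The other 3 fiber peaks were in the fiber list alone, and 1 of them, at 117.9 kb, was the strongest of the gene at 8.92-fold, above 81.2% of the fiber list. Another, at chr13:38342606-38342793 in the near anchor of the loop, was weak at 3.87-fold, above 2.11% of the list. The far anchor held a peak in both lists (5.06-fold in epithelium and 5.72-fold in fiber cells).

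Bmp2 (10.7 kb at chr2:133552159-133562896), a ligand best known for bone and heart formation, had loops toward higher coordinates in all 3 lists. The shorter one spanned 460 kb in ES cells with 38 contacts (2.68, 1.90 to 3.68), 450 kb in epithelium with 114 contacts (2.46, 2.03 to 2.96) and 470 kb in fiber cells with 35 contacts (3.16, 2.20 to 4.40). Its anchors were 10 kb wide in ES cells and fiber cells, whose intervals overlapped, and 25 kb in epithelium, whose ratio was not compared. The largest false discovery rate of this loop exceeded the limit of 0.01 in ES cells (0.055) and fiber cells (0.0101). A longer loop was listed in the lens only, of 930 kb in epithelium (29 contacts, 3.46, 2.32 to 4.97) and 950 kb in fiber cells (98 contacts, 2.17, 1.76 to 2.65), and in fiber cells its far anchor overlapped Hao1, which encodes glycolate oxidase. These long loops were not counted as counterparts, since their anchors differed in width and their midpoints lay more than 10 kb apart. The anchor at Bmp2 overlapped the body in ES cells and epithelium and ended 2.16 kb short of it in both fiber loops, which were therefore assigned only through the widening by 5 kb. The gene touched no TAD in any list. A CTCF peak of the fiber list alone lay 1.9 kb before the lower end of the gene (4.89-fold, above 16.6% of the list), inside the anchors of ES cells and epithelium and just outside those of fiber cells.

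Bmp5 (125 kb at chr9:75775365-75900316), a ligand with roles in skeletal growth, lay at the edge of the assignment rule. A loop of 475 kb to Hcrtr2, which encodes an orexin receptor, had identical anchors of 25 kb in ES cells (139 contacts, 2.35, 1.98 to 2.77) and epithelium (103 contacts, 2.63, 2.14 to 3.19). These anchors ended 0.364 kb before the gene and 114 bases before the promoter window. In fiber cells the corresponding loop of 470 kb to Hcrtr2 (45 contacts, 3.67, 2.68 to 4.91) had an anchor of 10 kb that ended 5.36 kb before the gene, and so missed the limit of 5 kb. The lack of a loop at Bmp5 in fiber cells thus rested on the width of the anchor, and with the body widened by 10 kb the gene had 2 loops in every list. The second of these had identical anchors in all 3 lists and spanned the gene over 360 kb to Hmgcll1, a gene of the HMG-CoA lyase family, with an enrichment of 2.89 in ES cells, 3.34 in epithelium and 3.79 in fiber cells. Bmp5 lay whole in a TAD of 435, 365 and 405 kb in the same order. No CTCF peak was listed in the widened gene, and the shared anchor held a fiber peak (chr9:75760191-75760412, 5.63-fold) that had no counterpart in epithelium.

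Bmp7 (72.3 kb at chr2:172868012-172940321), a ligand needed for eye and kidney development, had no anchor in any list and was instead enclosed by loops. A loop with 5 kb anchors spanned it over 160 kb in ES cells (55 contacts, 5.26, 3.97 to 6.85), 165 kb in epithelium (28 contacts, 6.30, 4.19 to 9.11) and 160 kb in fiber cells (27 contacts, 4.53, 2.99 to 6.60). The intervals of the 3 cell types overlapped. A larger loop of 250 to 260 kb around the gene was also listed in all 3. The closest anchor came within 28.0 kb of the gene in ES cells and fiber cells and within 33.0 kb in epithelium. TADs of 165 kb in ES cells and 150 kb in fiber cells held the gene, and none was listed in epithelium. There was no CTCF peak in the gene, and the nearest summit was 19.7 kb away in both lens lists.

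Among the receptor genes, Bmpr1b (332 kb at chr3:141837135-142169585) was the longest of the 10 genes and had the most loops, 3 in ES cells and 4 in each lens list. Its receptor binds several BMPs and Gdf5. Near its lower end the ES cell loops of 360 kb (36 contacts, 3.40, 2.38 to 4.70) and 250 kb (175 contacts, 2.40, 2.05 to 2.78) both reached Unc5c, which encodes a netrin receptor. The lens loops from the same place were much longer. In epithelium a loop of 2550 kb held 55 contacts (3.40, 2.56 to 4.43) and a loop of 2325 kb held 59 (3.11, 2.37 to 4.02), and in fiber cells the same pair of anchors held 73 (3.26, 2.55 to 4.10) and 86 (3.37, 2.69 to 4.16). All of these lens loops ended in Stpg2, a gene with sperm-tail repeats, and their anchors were identical in the lens lists. Loops from just below the gene to Unc5c were nonetheless present in the lens: one of 360 kb in epithelium (24 contacts, 5.97, 3.83 to 8.88) ended 7.13 kb from the body and one of 355 kb in fiber cells (24 contacts, 6.09, 3.90 to 9.06) ended 12.1 kb from it, both outside the limit of 5 kb. A contact with Unc5c was therefore listed close to the gene in the lens as well, whereas no ES cell loop to Stpg2 had an anchor within 60 kb of it.

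Toward higher coordinates Bmpr1b was joined in all 3 lists to Pdlim5, which encodes a scaffold protein of the cytoskeleton. This loop held 54 contacts over 410 kb in ES cells (4.54, 3.41 to 5.92), 37 over 390 kb in epithelium (3.19, 2.25 to 4.40) and 54 over 400 kb in fiber cells (4.24, 3.18 to 5.53), with overlapping intervals. Each lens list added a loop of 600 kb that reached no protein-coding gene, with 80 contacts in epithelium (3.16, 2.51 to 3.93, anchors of 25 kb) and 24 in fiber cells (3.02, 1.94 to 4.49, anchors of 10 kb, with a false discovery rate of 0.069 against the donut). They were not counterparts of each other, since their midpoints lay more than 10 kb apart. A TAD of 410, 405 and 390 kb began 17.9 kb inside the gene in ES cells and epithelium and 22.9 kb inside it in fiber cells. A TAD border thus lay in the body in all 3 lists. Taken list by list, 15.5%, 7.79% and 11.3% of all genes had a border inside, and 33.2%, 19.8% and 28.1% of genes over 50 kb. The share with a border in all 3 lists at once was not computed. The anchors of the Pdlim5 loops began 22.9 to 32.9 kb inside Bmpr1b, beyond its TAD border.

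Bmpr1b held 4 CTCF peaks in epithelium and 5 in fiber cells, the most over both lists of the 10 genes. The 4 epithelium peaks, at 2.0, 63.4, 193.7 and 206.5 kb from the lower end, were 7.81-fold, 10.7-fold, 4.79-fold and 9.81-fold over background. Each overlapped a fiber peak, of 10.0-fold, 6.20-fold, 5.45-fold and 10.8-fold. The fifth fiber peak, at 50.5 kb, was in that list alone (5.31-fold). The peak at 2.0 kb, above 84.1% of the epithelium list and 88.5% of the fiber list, lay in the anchor of the Unc5c loops of ES cells and the Stpg2 loops of the lens. The anchors toward Pdlim5 held no peak of either list.

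Acvr1 (120 kb at chr2:58446438-58566828) encodes a type I receptor used in early lens growth. It was joined to Upp2, a uridine phosphorylase gene, by a loop of 190 kb in all 3 lists, with 78 contacts against 11.0 expected in ES cells, 62 against 26.1 in epithelium and 81 against 18.2 in fiber cells. The enrichment was 7.09 (5.61 to 8.85) in ES cells, 2.38 (1.82 to 3.05) in epithelium and 4.46 (3.54 to 5.55) in fiber cells. In the lens lists the anchors had the same positions and a width of 10 kb, and the intervals of epithelium and fiber cells did not overlap. With the largest of the 4 expected counts in place of the donut the ratio was 1.95 in epithelium and 3.20 in fiber cells. The ES cell anchors were 5 kb wide, so that the ES cell ratio, 4.80 with the largest expected count, stands on another bin size and was not compared with the lens values. Without the separate replicates, it is not known how far such ratios vary between samples. Both lens lists also held a loop of 275 kb to Cytip, a gene of immune cell adhesion, at identical anchors of 25 kb (95 contacts, 2.18, 1.76 to 2.66 in epithelium, and 116 contacts, 2.08, 1.72 to 2.49 in fiber cells). The ES cell list had no loop from there to Acvr1. Loops of 470 kb in ES cells and epithelium and 460 kb in fiber cells, which passed over the gene from near the Cytip anchor to the Upp2 anchor, were listed in all 3 (4.36, 2.96 to 6.19, then 3.76, 2.39 to 5.65, then 3.52, 2.32 to 5.12). The far ends of the lens loops of Acvr1 were thus joined to each other in ES cells too. A TAD touched Acvr1 in ES cells only, of 170 kb, with its border 48.6 kb inside the gene.

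The 2 CTCF peaks of Acvr1 were present in both lens lists. That at 12.7 kb from the lower end (5.45-fold in epithelium and 5.67-fold in fiber cells) lay in the anchor of the Cytip loop, and that at 30.8 kb (5.97-fold and 6.89-fold) lay in the anchor of the Upp2 loop. The far anchor at Upp2 held 1 epithelium peak and 2 fiber peaks. The Upp2 loop thus had a peak at both anchors in each lens cell type.

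Bmpr1a (92.3 kb at chr14:34411061-34503336), a broadly expressed type I receptor, had 1 short loop in each list. It joined the middle of the gene to Ldb3, a gene of the muscle Z-disc, over 120 kb in ES cells (89 contacts, 2.24, 1.80 to 2.75), 90 kb in epithelium (55 contacts, 2.91, 2.19 to 3.79) and 110 kb in fiber cells (57 contacts, 2.41, 1.83 to 3.13). The intervals overlapped. The loops of ES cells and fiber cells were counterparts of each other, while the epithelium loop ended in a different part of Ldb3. A TAD border lay in the gene in ES cells, 8.94 kb from its lower end, and in fiber cells, 13.9 kb from it, with TADs of 160 and 140 kb, and epithelium had no TAD there. Fiber cells had 2 CTCF peaks in the gene (5.48-fold and 5.23-fold) and epithelium none. The second of them, at chr14:34501668-34502059, was 437 bases from the promoter window. No peak lay in the near anchors, and the far anchor of the epithelium loop held a peak that was 5.21-fold in epithelium and 13.8-fold in fiber cells.

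**Figure D4:**
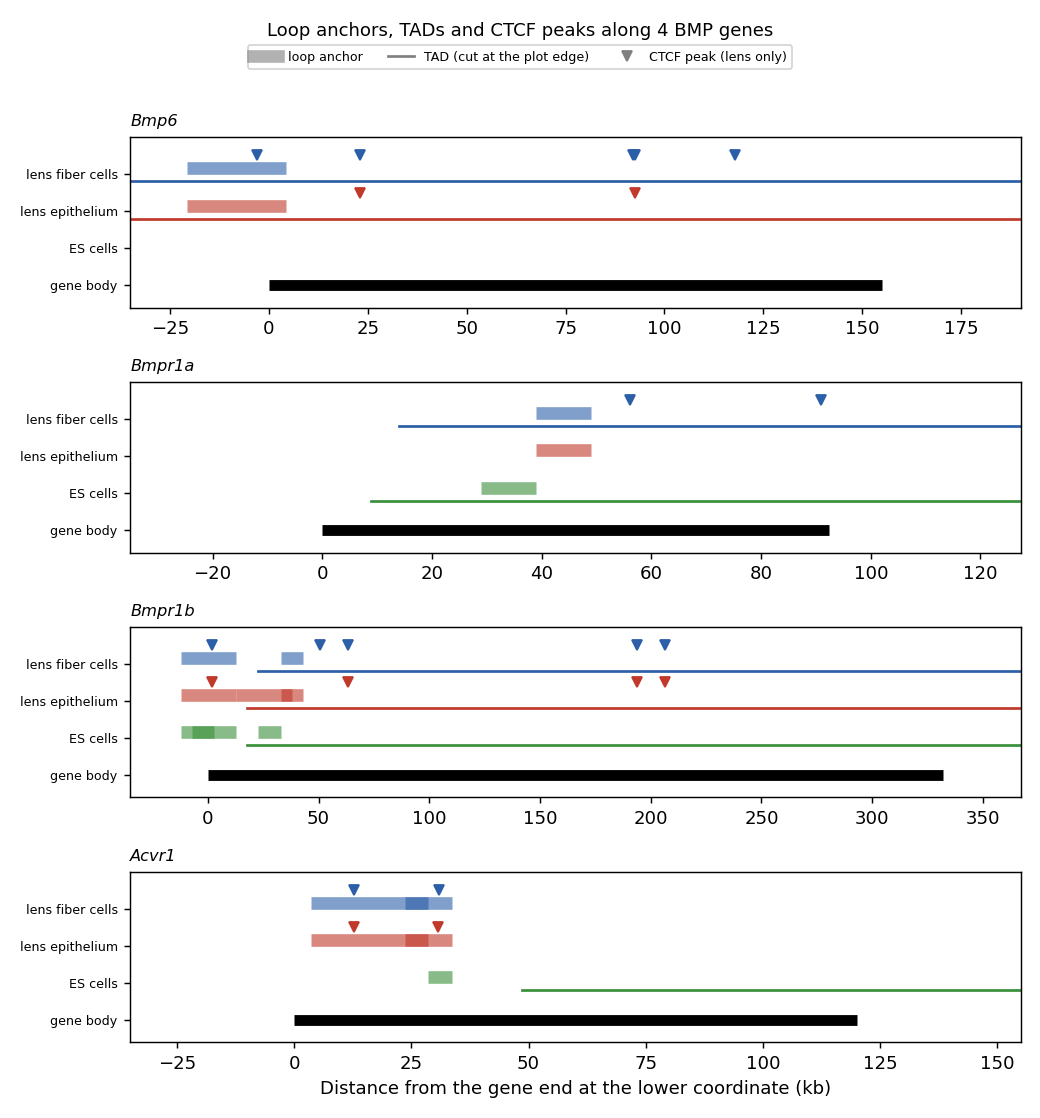
Positions of loop anchors (thick bars), TADs (thin lines, cut at the plot edge) and CTCF peak summits (triangles, lens lists only) along Bmp6, Bmpr1a, Bmpr1b and Acvr1, as distance in kb from the gene end at the lower coordinate, with 1 row for each cell type and the gene body in black. At Acvr1 both lens lists had peaks near 12.7 and 30.8 kb, each under an anchor, whereas the peaks of Bmp6 inside the body lay away from its anchor.

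Of the antagonists, Nog (1.92 kb at chr11:89300638-89302559) had loops in all 3 lists, all toward lower coordinates and to segments without a protein-coding gene. A loop of 135 to 140 kb was shared by all 3, with 55 contacts in ES cells (4.05, 3.05 to 5.27), 44 in epithelium (2.94, 2.14 to 3.95) and 25 in fiber cells (3.99, 2.58 to 5.89). The anchors were 5 kb wide in ES cells and fiber cells, whose intervals overlapped, and 10 kb in epithelium, whose ratio was not compared. ES cells alone had a second loop, of 200 kb (38 contacts, 3.84, 2.72 to 5.28). The whole gene lay in the anchor in each case. The TADs around Nog differed in extent. ES cells had 2 overlapping ones of 240 and 180 kb, epithelium a TAD of 860 kb, and fiber cells a TAD of 130 kb that ended 2.44 kb beyond the gene. A CTCF peak 1.0 kb beyond the higher end was listed in fiber cells (7.45-fold, above 65.7% of the list) and not in epithelium, whose nearest summit was 51.1 kb away. The far anchor of ES cells and epithelium held a strong peak of both lens lists (11.8-fold in epithelium and 13.8-fold in fiber cells), while the fiber anchor, of 5 kb, ended just short of it.

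Grem1 (9.97 kb at chr2:113748675-113758648) had no anchor in any list. In the limb, regulatory elements of Grem1 are known to lie within the neighboring gene Fmn1, which encodes a formin. In both lens lists a loop of 310 kb with identical anchors spanned Grem1 and ended in Fmn1, with 55 contacts in epithelium (4.02, 3.03 to 5.23) and 71 in fiber cells (4.16, 3.25 to 5.24). A TAD of 315 kb, identical in both lens lists, had its ends in the anchors of this loop and held the gene. ES cells had no TAD there and a slightly larger loop of 330 kb (48 contacts, 3.15, 2.32 to 4.17) with the same anchor in Fmn1, whose other anchor was 61.4 kb from the gene, beside 41.4 kb in both lens cell types. Grem1 thus lay inside a loop in all 3 lists, with a TAD in the lens lists only, and at neither end of it. The gene held no CTCF peak, and the nearest summit was 49.2 kb away in both lists.

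**Figure D5:**
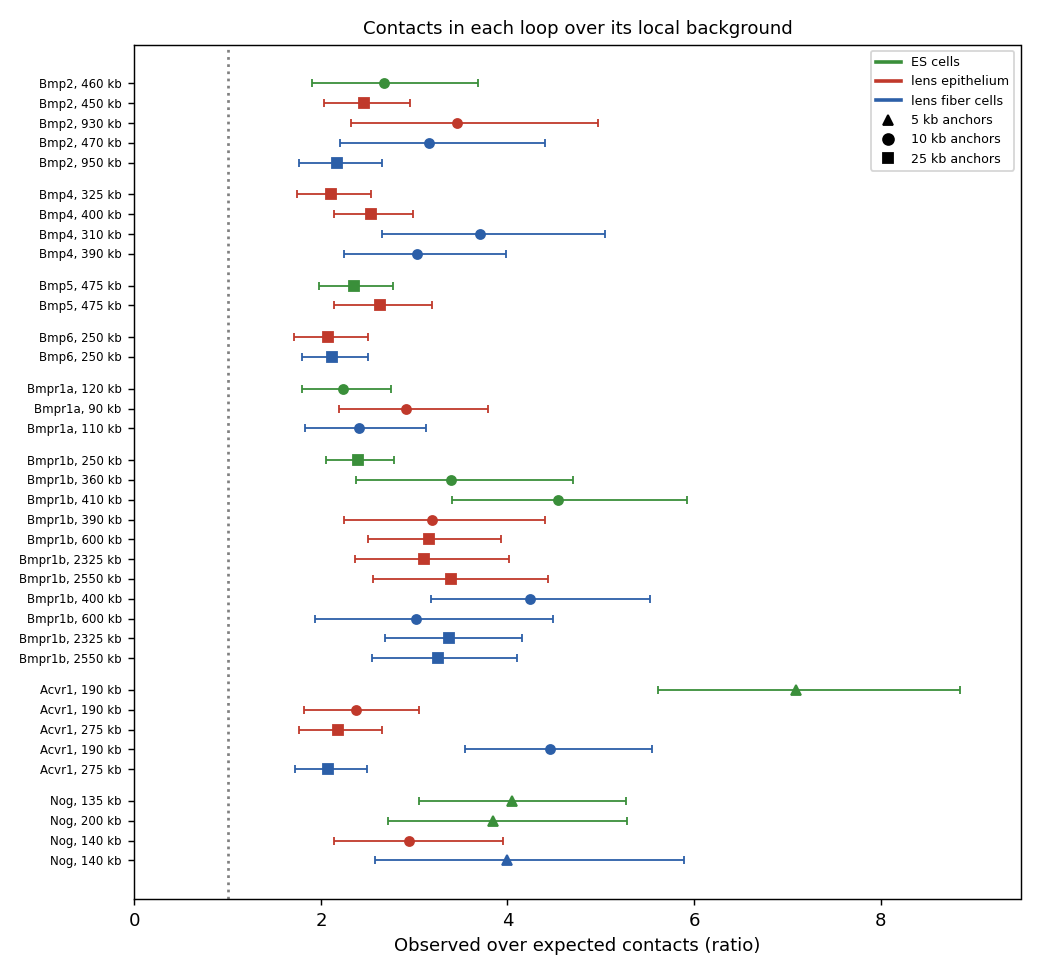
Observed over expected contacts of each loop at the 8 genes with an anchor, with exact 95% Poisson intervals of the observed count, by cell type (color) and anchor width (symbol). The dotted line marks a ratio of 1, and ratios are comparable only between equal symbols. At Acvr1 the loop of 190 kb, on equal anchors of 10 kb, lies at 2.38 in epithelium and 4.46 in fiber cells.

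Over the 10 genes, TADs touched 7 in ES cells, 6 in epithelium and 8 in fiber cells, where all genes gave 43.4%, 22.8% and 31.6% and genes over 50 kb gave 56.3%, 37.8% and 48.9%. Of the loops, 3 in ES cells, 4 in epithelium and 3 in fiber cells lay within 1 TAD (30.9%, 26.3% and 29.4% of all loops). None ran from 1 TAD to another, as 4.91%, 0.562% and 1.43% of all loops did. In each list the largest class was loops with no anchor in a TAD, with 4, 7 and 6. This class was also the largest among all loops (38.3%, 58.9% and 49.1%).

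CTCF peaks were listed in 3 genes in epithelium (Bmp6, Bmpr1b and Acvr1) and in 6 in fiber cells (these and Bmp2, Bmpr1a and Nog), where all genes gave 31.2% and 45.9% and genes over 50 kb gave 57.1% and 72.4%. Bmp4, Bmp5, Bmp7 and Grem1 had no peak in either list (51.1% of all genes). All 8 peaks of epithelium overlapped a fiber peak (72.8% of the whole list did), and 8 of the 16 fiber peaks overlapped an epithelium peak (50.1%). The median peak in these genes was 6.54-fold over background in epithelium and 5.58-fold in fiber cells, beside 5.78-fold and 6.44-fold for the whole lists. The fiber list is also the longer one. Peaks of the matching lens list were found in 11 of 28 loop anchors in epithelium (39.3%, and 38.1% of all anchors) and in 12 of 26 in fiber cells (46.2%, and 61.2%). With anchors widened by 5 kb the counts were 11 in epithelium and 16 in fiber cells, and the shares over all anchors were not computed. The mix of anchor widths also differed from that of all loops, as given above. Of the fiber loops, 4 of 13 had a peak at neither anchor (16.6% of all fiber loops). These are anchors of loops, so that a segment used by several loops is counted for each of them.

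The other 44 genes of the BMP pathway had loops at 24 in ES cells, 30 in epithelium and 25 in fiber cells. These counts were 54.5%, 68.2% and 56.8% of the 44, beside 37.3%, 36.2% and 34.5% of all protein-coding genes. Loops in any list were found at 33 of the 44. The other 11 had none in any list, beside 47.9% of all genes. Among all genes over 50 kb the share without a loop in any list was 20.8%, and among those up to 50 kb 55.9%. By role, loops in any list were found at 6 of 9 genes for ligands and the Bmp1 protease, 4 of 6 for receptors and co-receptors, 11 of 15 for antagonists and modulators, 6 of 8 for signal transducers and their inhibitors, and 6 of 6 for targets (Id1, Id2, Id3, Id4, Msx1 and Msx2, transcription regulators that BMP signals induce). The 6 targets had a loop in each of the 3 lists, as did 21.3% of all genes and 14.3% of genes with a body up to 50 kb. The genes with the most loops were Id2 (4 in ES cells, 2 in epithelium and 4 in fiber cells), Rgma, a BMP co-receptor (5, 3 and 2), Acvr2a, a type II receptor (3, 3 and 4), Msx1 (7, 1 and 1) and Bmp3 (2, 4 and 3). At Msx1 most of the loops were those of ES cells. Of the 10 genes above, Nog alone had more loops in ES cells than in each lens list (2, 1 and 1). CTCF peaks were found in 21 of the 44 genes in epithelium and in 27 in fiber cells (47.7% and 61.4%, beside 31.2% and 45.9% of all genes). The most peaks were in the antagonist gene Dand5 (2 in epithelium and 4 in fiber cells), in Rgma (2 and 3) and in the inhibitory Smad6 (0 and 5), followed by Sost (2 and 2), Fstl3 (2 and 2) and Smad9 (3 and 1). Smad6, like Bmp2, Bmpr1a and Nog, thus had peaks in fiber cells alone. The loop counts of Bmpr1b were matched exactly by 25 other genes over the 3 cell types, of which Dner, Ppm1h and Specc1 were the nearest in length.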

How the data were processed

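Hi-C reads were aligned with BWA and merged over both replicates of a cell type by the authors, who called loops with HiCCUPS (juicer_tools 2.13.06) and TADs with Arrowhead. For every loop, the deposited observed count is a raw number of contacts, and the expected values are a signal that the authors' run of HiCCUPS took from 4 neighborhoods. The false discovery rates are q-values given by the authors' run. CTCF peaks were called with MACS2 by the authors, and the deposited lists give each peak a score, a fold enrichment and −log10 p-values and q-values. TAD and peak positions were used as deposited, on mm10.

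Genes were taken from the RefSeq table of GRCm38.p6 (21631 protein-coding genes) and overlaps of at least 1 bp were computed in Python (3.11.15) with pandas (2.3.3), numpy (2.4.6) and, for Poisson intervals, scipy (1.17.1). Plots used matplotlib (3.10.9). The assignment of loops to genes, the search for counterparts and the Poisson interval were tested on simulated data, and the other steps were not. Enrichment medians left out loops with an expected count below 1. With 1 list per cell type no test was run. The 10 genes, the pathway list and the comparisons were chosen with earlier results of these data known. Named are all 10 genes, genes at far anchors, and the 5 other pathway genes with most loops and most peaks (ties included), with the 3 genes nearest to Bmpr1b in loop counts. Genes near but not at far anchors, genes at the ends of loops that span a member, the spanning loops themselves, and the split at a body of 50 kb were chosen after the values were seen. RefSeq promoter windows matched 7 of the 10 genes. CTCF peak sequences, the depth of the libraries and expression were not used here. Alternatives for widening, anchor width, false discovery rate, overlap and peak strength were computed.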

Additional observations from a re-analysis of the deposited data

How the results depend on the processing

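Of 70 alternative values computed for the counts and medians above, 60 stayed within 1.5 times the count, or within the 95% interval of the median, and 10 did not. That interval was taken from order statistics and treats the few loops of a list as independent. It was wide, at 190 to 930 kb for loop size in epithelium, so that staying within it is a weak criterion. With anchors of 5 or 10 kb only, lens epithelium kept 5 loops at 5 genes in place of 14 at 8, and lens fiber cells 8 loops in place of 13, and Bmp6 had none in either. With all false discovery rates below 0.01, lens epithelium had 9 loops. When both anchors had to overlap, 4 ES cell loops in place of 7 had a counterpart. TADs that held the whole gene numbered 5 in ES cells in place of 8, and TADs of at least 200 kb numbered 4 in ES cells and 5 in lens fiber cells in place of 8 each. The median enrichment in lens epithelium was 2.12 with the largest expected count in place of 2.77. In the stronger 50% of the fiber list, 5 peaks remained in place of 16. In ES cells, Bmp4 and Bmp6 had no loop, and in all lists Bmp7 and Grem1 had none, under each loop alternative. None of these alternatives could have changed this. Apart from the widening to 10 kb, they can only remove loops. The nearest anchors were 329 kb (Bmp4) and 126 kb (Bmp6) away in ES cells. In any list they were at least 28.0 kb (Bmp7) and 41.4 kb (Grem1) away. No paired analysis was possible because both replicates of a cell type had been merged into 1 list, and for the same reason no replicate could be left out. The depth of the maps limits which loops could be called, and a loop absent from a list may lie under that limit.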
